A study of Mus musculus with 16 samples.

Results

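The interferon regulatory factors (IRFs) are a family of transcription factors, and 8 of their genes were followed here in mouse macrophages. They are Irf1, Irf2, Irf3, Irf4, Irf5, Irf7, Irf8 and Irf9, chosen by name as genes of the family with an array feature (a set of probes read as 1 value) annotated to that symbol alone, and they are 8 of 19938 genes in the table. Macrophages grown from bone marrow in L-cell conditioned medium carried an H3.3-HA knock-in (histone H3.3 with an HA tag) in every group, so no wild-type cells stand beside them. The cells were treated with interferon-gamma. Pretreated cells, which had met interferon before, gave 4 arrays at 0 h and 2 arrays each at 3 h and 6 h of interferon, and naive cells gave the same numbers. The sources used here state neither the dose nor how long the pretreatment and any pause after it lasted.

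IRFs share a DNA-binding domain near the amino terminus with conserved tryptophans, and they bind the interferon-stimulated response element (ISRE), built from GAAA repeats. Interferon-gamma acts through the kinases JAK1 and JAK2, and the signal reaches DNA at gamma-activated sites (GAS). IRF1 and IRF8 are made in response and switch on genes of antigen presentation and microbial killing, while IRF3, IRF5 and IRF7 lie in the cell until pattern-recognition receptors trigger their phosphorylation. IRF9 joins STAT2 in ISGF3, the factor of type I interferon signalling, IRF2 competes with IRF1 for the same sites, and IRF4 is known from lymphocytes and from alternatively activated macrophages.

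The promoters of Irf1, Irf8, Irf2 and Irf7 are shown because these genes gave the clearest changes or differences at 0 h below. Each is 300 bases long, from 250 bases before the annotated start to 50 bases after it, 5′ to 3′ on the gene's strand, from RefSeq in build GRCm38.p6. Irf1 lies at chr11:53769764-53770063 on the plus strand, Irf8 at chr8:120736108-120736407 on the plus strand, Irf2 at chr8:46739495-46739794 on the plus strand and Irf7 at chr7:141266375-141266674 on the minus strand. Capitals mark matches to the GAS letters TTCNNNGAA or the ISRE letters, which are GAAA, any 2 bases and GAAA.
Irf1: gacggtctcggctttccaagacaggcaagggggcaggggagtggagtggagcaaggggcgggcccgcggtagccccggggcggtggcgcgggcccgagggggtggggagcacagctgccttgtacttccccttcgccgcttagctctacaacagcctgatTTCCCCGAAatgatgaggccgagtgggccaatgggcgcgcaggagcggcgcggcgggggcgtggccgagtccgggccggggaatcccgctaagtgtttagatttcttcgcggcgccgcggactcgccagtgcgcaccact
Irf8: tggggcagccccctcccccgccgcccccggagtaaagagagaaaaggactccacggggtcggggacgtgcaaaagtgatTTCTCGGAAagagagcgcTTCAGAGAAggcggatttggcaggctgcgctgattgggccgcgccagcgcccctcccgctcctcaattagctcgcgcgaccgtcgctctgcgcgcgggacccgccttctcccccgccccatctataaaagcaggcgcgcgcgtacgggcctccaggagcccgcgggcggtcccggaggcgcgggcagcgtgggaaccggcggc
Irf2: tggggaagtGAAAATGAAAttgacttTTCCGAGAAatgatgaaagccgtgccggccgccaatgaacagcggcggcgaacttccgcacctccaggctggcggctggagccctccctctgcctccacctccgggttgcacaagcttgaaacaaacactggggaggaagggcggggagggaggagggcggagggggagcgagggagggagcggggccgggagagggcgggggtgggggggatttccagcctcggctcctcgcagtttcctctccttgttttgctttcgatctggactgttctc
Irf7: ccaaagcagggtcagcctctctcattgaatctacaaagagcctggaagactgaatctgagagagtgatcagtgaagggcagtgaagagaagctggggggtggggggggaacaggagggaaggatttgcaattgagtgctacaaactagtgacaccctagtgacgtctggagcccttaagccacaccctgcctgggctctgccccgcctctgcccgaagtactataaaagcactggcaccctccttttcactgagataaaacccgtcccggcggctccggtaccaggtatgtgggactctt

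All 8 genes had a promoter window in the RefSeq table, with 11 windows in all, and both strands were searched (the GAS letters read the same on either). Irf1, Irf2 and Irf8 held a GAS match, which 9.55% of 27025 genes do in at least 1 window. The Irf1 match TTCCCCGAA began 90 bases before the start. The Irf8 window held a pair of matches, TTCTCGGAA 171 bases and TTCAGAGAA 153 bases before the start. Irf2 held TTCCGAGAA 224 bases before its start and, 241 bases before it, GAAAATGAAA, the only ISRE match among the 8 genes (3.99% of all genes have one). The matches did not overlap each other. The other 5 genes held neither motif in their windows. For Irf5 this says nothing of the bases upstream of the gene. The Irf5 window (29526375 to 29526674) lay wholly inside the annotated gene (29526130 to 29541869). The Irf7 window (141266375 to 141266674) was set from a start inside the gene, which begins at 141266499 on the minus strand. It therefore reached less far upstream of the gene. Bases outside the windows were not searched. A match is a run of letters and not a measured binding site.

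Values below are log2 intensities, so a difference of 1 is a doubling. The 16 arrays came in 2 array sets of 8, as numbered in the titles: set 1 held 0 h and 6 h cells and set 2 held 0 h and 3 h cells. Levels differed between sets (naive 0 h Irf8 averaged 12.23 in set 1 and 11.21 in set 2), so every change was taken within a set. Array medians were 7.151 to 7.226 in set 1 and 6.886 to 6.997 in set 2, no arrays were identical, and the 8 pairs of arrays from the same group and set had correlations of 0.9896 to 0.995 across genes. The number of arrays limits the precision. The labels do not say whether arrays came from separate cultures or animals, and the p-values then reflect just the spread among these arrays, which may be technical. All 11 macrophage markers checked, among them Adgre1, Csf1r and Lyz2, had a mean of 6.5 or more, the level below which a feature was treated as dim. That level lies below every array median, so the check is a low bar. Some but not all markers of other cells passed it too, such as Cd79b (8.83) of B cells and Col1a1 (7.87) of fibroblasts. The brightest were Bst2 (11.49) and Tcf4 (11.43) of plasmacytoid dendritic cells, while the macrophage marker Cd163 was at 6.98. The value after ± is the SE of 1 limma fit to all 16 arrays. Adjusted p-values are limma's, by Benjamini-Hochberg over all 19938 genes, and a gene counted as changed under 0.05. Intervals are 95% and not adjusted for the number of genes.

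**Figure D1:**
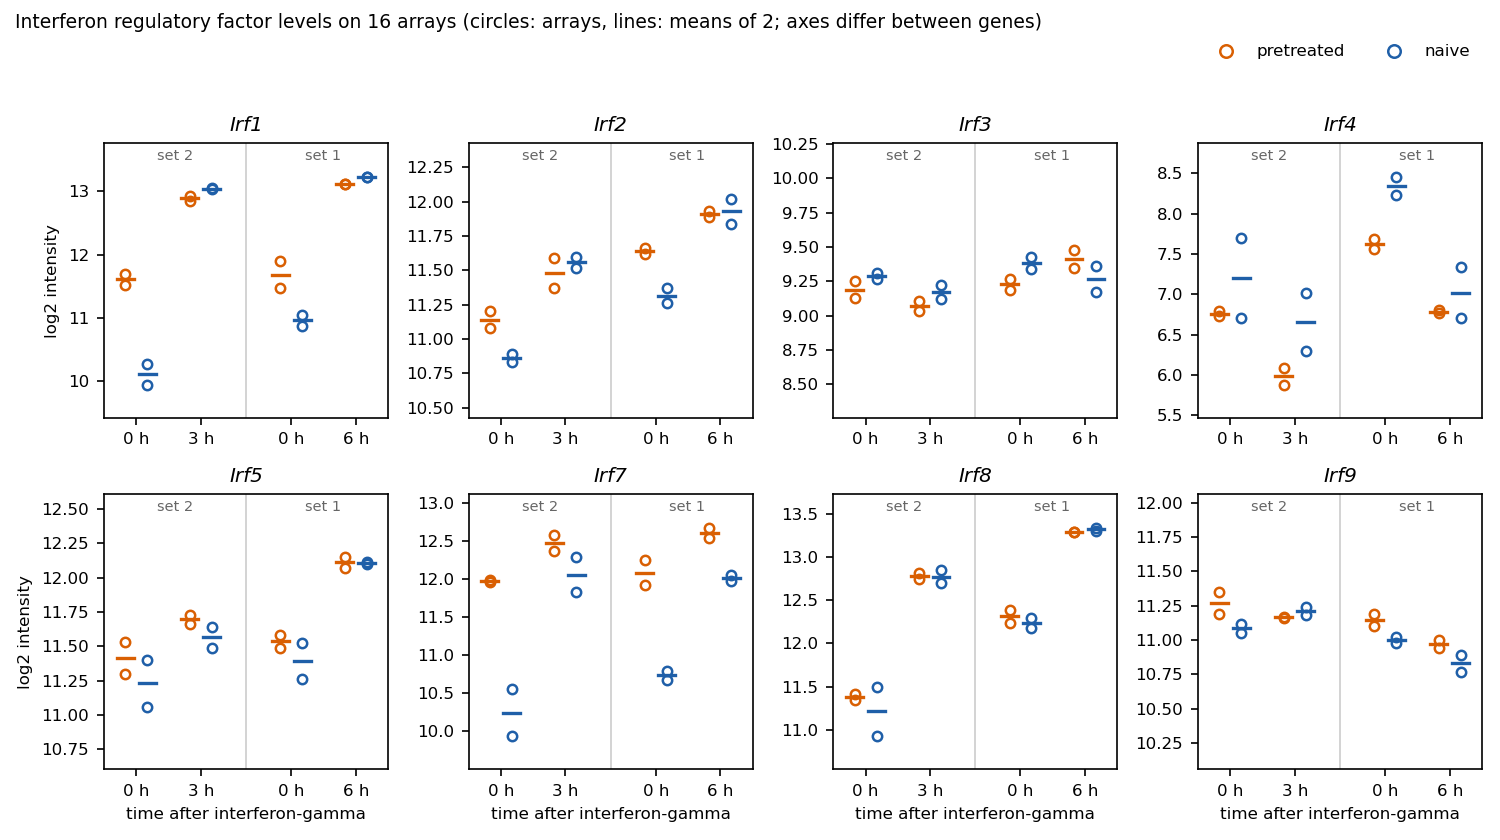
Log2 intensity of the 8 genes on each array (circles) with the mean of each pair (lines), pretreated cells in orange left of naive cells in blue, set 2 (0 h and 3 h) left of set 1 (0 h and 6 h), with axes that differ between genes. Irf1 and Irf7 started higher in pretreated cells at 0 h, Irf8 did not, and Irf3 stayed between 9.03 and 9.48.

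Naive cells showed which IRF genes respond to interferon-gamma without earlier exposure. After 3 h, Irf1, Irf2, Irf7 and Irf8 rose, 4 of 8 with none falling, while 3.37% of all genes rose and 2.09% fell. After 6 h the same 4 and Irf5 rose, 5 of 8 against 7.48% of all genes, and Irf4 fell, 1 of 8 against 10.8%. The share of members that fell was near that of all genes. The median log2 change of the 8 genes was 0.52 at 3 h and 0.67 at 6 h, and that of all genes was 0.0 and -0.01. No untreated cells were sampled at 3 h or 6 h, so the effect of interferon and that of hours in culture or of handling cannot be told apart. In RNA of a whole culture, a change in level per cell and a change in the share of cells with the transcript cannot be told apart either.

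Irf1, the activator of MHC class I presentation and inducible nitric oxide synthase genes, had the largest change of the 8. It stood at 13.03 and 13.05 in naive cells at 3 h, against 10.27 and 9.95 at 0 h in the same set. The arrays of each time lay close together and the groups were far apart. The log2 change was 2.93 ± 0.15, a 7.62-fold rise (adjusted p = 1.68e-07), rank 49 of 19938 genes by size of rise. At 6 h Irf1 was at 13.23 and 13.22, against 10.88 and 11.05 at 0 h, a change of 2.26 ± 0.15 or 4.8-fold (adjusted p = 9.21e-07).

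Irf8, which with PU.1 (Spi1) drives monocyte and macrophage differentiation, also rose at both times. Its levels were 12.85 and 12.7 in naive cells at 3 h, against 11.5 and 10.93 at 0 h. The 0 h arrays differed from each other by more than the 3 h arrays, yet the groups did not overlap. The change was 1.56 ± 0.15, or 2.94-fold (adjusted p = 3.86e-05). In set 1 Irf8 stood at 13.34 and 13.3 at 6 h, against 12.18 and 12.29 at 0 h, and rose by 1.09 ± 0.15, or 2.12-fold (adjusted p = 0.000296). Irf8 is also a factor of type 1 conventional dendritic cells, so their markers were read beside it. Of 7 conventional dendritic cell markers none passed at 3 h and Clec9a (4.44) and Xcr1 (1.1) rose at 6 h, while Flt3 (-0.08) and Zbtb46 (-0.12) did not pass. The median change of the 7 markers in naive cells at 6 h was 0.02. Their mean level was 7.21 to 7.22 in naive cells at 6 h, against 6.4 to 6.41 at 0 h, and their part in the Irf8 value was not tested.

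Irf2, the antagonist of IRF1, showed a smaller rise. It was at 11.6 and 11.52 in naive cells at 3 h, against 10.89 and 10.83 at 0 h, with no overlap. The change was 0.7 ± 0.11 (1.62-fold, adjusted p = 0.00206). At 6 h Irf2 reached 11.84 and 12.02, against 11.26 and 11.37 at 0 h, a change of 0.62 ± 0.11 (adjusted p = 0.0018).

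Irf7, the factor that amplifies type I interferon production, rose by 1.82 ± 0.2 at 3 h (3.53-fold, adjusted p = 8.87e-05). The arrays read 11.83 and 12.29 in naive cells at 3 h, against 9.94 and 10.55 at 0 h. Replicates were spread by about as much at either time and the groups stayed apart. At 6 h the levels were 12.06 and 11.98, against 10.68 and 10.8 at 0 h, a rise of 1.28 ± 0.2 (adjusted p = 0.000578).

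Irf9, the DNA-binding subunit of ISGF3, did not pass at either time. Its 8 arrays of set 2 ranged only between 11.05 and 11.35 and those of set 1 between 10.77 and 11.19. The change in naive cells was 0.12 at 3 h (interval -0.09 to 0.34) and -0.17 at 6 h (interval -0.38 to 0.05). Both upper bounds lie below the Irf7 changes. Its partner Stat2 rose by 1.3 ± 0.11 at 3 h (adjusted p = 1.62e-05) and by 1.16 ± 0.11 at 6 h (adjusted p = 2.12e-05).

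Irf3 and Irf5, like Irf7, encode IRFs that sensors activate through phosphorylation. Irf3, which together with NF-kB starts transcription of the interferon-beta gene, ranged between 9.03 and 9.31 in set 2 and between 9.17 and 9.48 in set 1. Its change was -0.12 in naive cells at both times, each with an interval of -0.35 to 0.11. Irf5, an inducer of inflammatory cytokine genes in macrophages, stood at 12.11 and 12.1 in naive cells at 6 h, against 11.26 and 11.52 at 0 h, and rose by 0.72 ± 0.14 (1.64-fold, adjusted p = 0.00263). At 3 h Irf5 was at 11.64 and 11.49, against 11.06 and 11.4 at 0 h, and its change of 0.34 did not pass (interval 0.04 to 0.64, adjusted p = 0.233). Whether the Irf5 change differed between 6 h and 3 h did not pass either (0.38, interval -0.04 to 0.8, adjusted p = 0.447).

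Irf4 was the one member that fell. In set 1 it was at 6.7 and 7.34 in naive cells at 6 h, against 8.23 and 8.46 at 0 h. The groups did not overlap, and the 6 h arrays were the more spread. The change was -1.33 ± 0.3 (adjusted p = 0.00742), and it no longer passed without naive 0 h replicate 2 (-1.21, adjusted p = 0.0626) or without naive 6 h replicate 1 (-1.01, adjusted p = 0.0941). At 3 h the arrays read 7.02 and 6.3, against 7.7 and 6.71 at 0 h, so the groups overlapped, with replicate 2 at 3 h below the dim level, and the change of -0.54 ± 0.3 did not pass (adjusted p = 0.463). Irf4 is abundant in B-lineage cells, so B cell markers were read beside it. Of 6 B cell markers Cd79b fell at 6 h (-0.58) and the others did not pass. Their mean level was 6.24 to 6.31 in naive cells at 6 h, against 6.38 to 6.43 at 0 h, with Cd79a at 4.91 and Ms4a1 at 4.69 on average over all arrays, below the dim level. Their part in the Irf4 value was not tested.

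**Figure D2:**
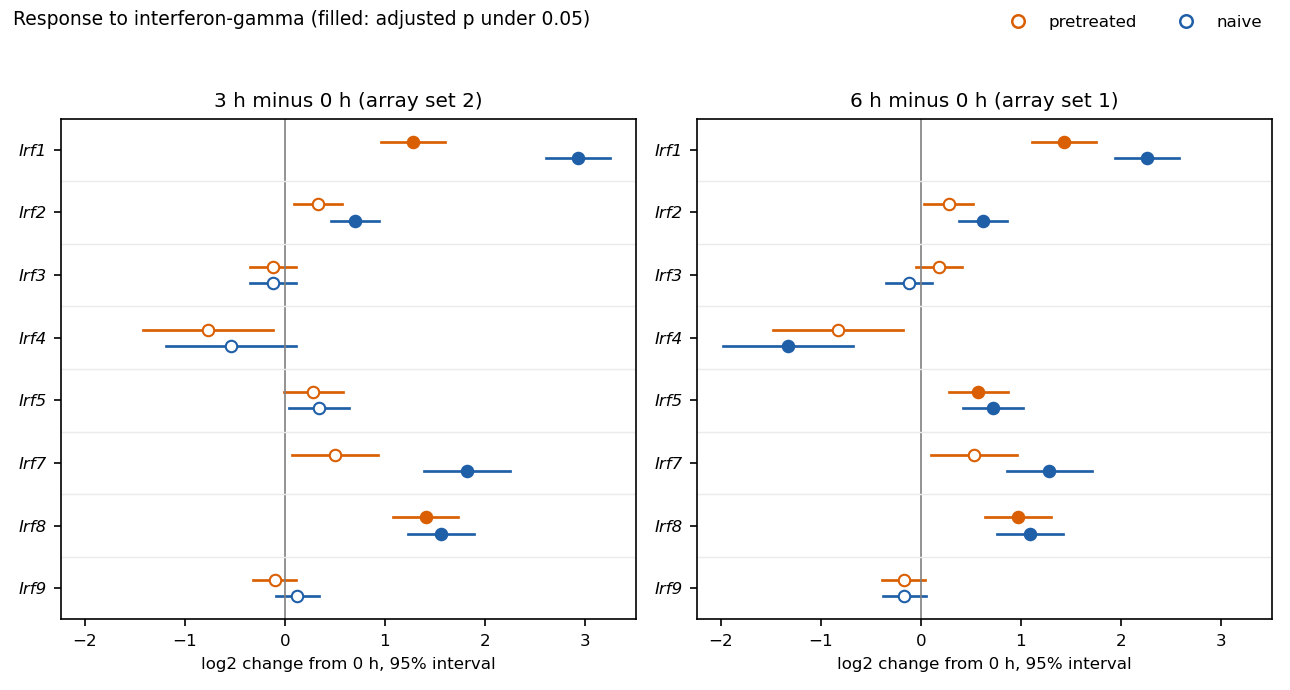
Log2 change of each gene from 0 h (x axis) at 3 h in set 2 (left) and at 6 h in set 1 (right), pretreated cells in orange above naive cells in blue, with 95% intervals and filled circles for adjusted p under 0.05. Irf1 and Irf7 changed by less in pretreated cells (1.28 and 0.5 at 3 h) than in naive cells (2.93 and 1.82), while Irf8 changed by 1.41 and 1.56. The difference of responses at 3 h did not pass for Irf7. For Irf1 it passed on the brighter feature alone and was lost in some alternatives.

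Pretreated cells at 0 h showed which of these genes were higher after the earlier interferon. Irf7 and Irf1 were higher than in naive cells, 2 of 8, against 0.808% of all genes, and none was lower. The median difference of the 8 genes was 0.17 and that of all genes 0.02.

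Irf7 had the largest difference of the 8 at 0 h. It was at 12.25 and 11.93 in pretreated cells of set 1, against 10.68 and 10.8 in naive cells. In set 2 it was at 11.97 and 11.99 in pretreated cells, against 9.94 and 10.55 in naive cells. No pretreated array overlapped a naive one in either set, and over both sets the difference was 1.54 ± 0.14, or 2.92-fold (adjusted p = 6.07e-05), rank 46 of 19938. Within set 1 alone the difference was 1.35 ± 0.2 and within set 2 1.74 ± 0.2. The pretreated 0 h levels of set 2 lay within the range of naive cells at 3 h (11.83 and 12.29). Plasmacytoid dendritic cells hold much IRF7, and of 4 measured markers of theirs Bst2, itself an interferon-induced gene, was higher in pretreated cells at 0 h (0.72) and Tcf4 lower (-0.37). Their mean level was 8.94 to 9.06 in pretreated cells of set 1, against 8.73 to 8.88 in naive cells, and 8.33 to 8.54 in pretreated cells of set 2, against 8.29 to 8.34, and their part was not tested.

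Irf1 read 11.47 and 11.9 in pretreated cells of set 1, against 10.88 and 11.05 in naive cells, and 11.52 and 11.7 in pretreated cells of set 2, against 10.27 and 9.95 in naive cells. The groups did not overlap in either set, and the pretreated level lay below that of stimulated cells. Over both sets the difference was 1.11 ± 0.1, or 2.16-fold (adjusted p = 8.9e-05). The sets differed in size: it was 0.73 ± 0.15 within set 1 and 1.5 ± 0.15 within set 2, and set 1 on its own did not pass in a fit to its 8 arrays (adjusted p = 0.194).

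Irf8 did not pass at 0 h. It was at 12.39 and 12.24 in pretreated cells of set 1, against 12.18 and 12.29 in naive cells, and at 11.35 and 11.41 in pretreated cells of set 2, against 11.5 and 10.93 in naive cells. The groups overlapped in both sets, and the difference was 0.13 (interval -0.11 to 0.36, adjusted p = 0.883). Of the 7 conventional dendritic cell markers Clec9a was higher in pretreated cells at 0 h (1.67), and its part was not tested. Irf2 was at 11.62 and 11.66 in pretreated cells of set 1, against 11.26 and 11.37 in naive cells, and at 11.2 and 11.08 in set 2, against 10.89 and 10.83. Its groups did not overlap in either set, but the difference of 0.3 did not pass over all genes (interval 0.13 to 0.47, adjusted p = 0.129), and it passed with positions 1 to 4 and 5 to 8 of a set as a block (adjusted p = 0.0339). Irf4 differed by -0.59 (interval -1.04 to -0.13, adjusted p = 0.396), Irf5 by 0.17, Irf9 by 0.17 and Irf3 by -0.13, and none of these passed.

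**Figure D3:**
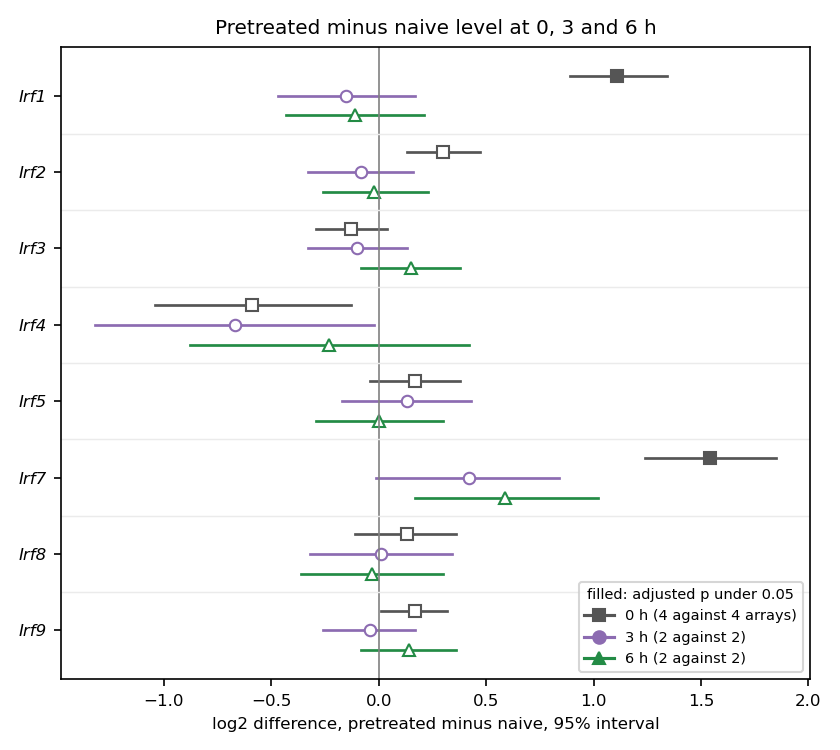
Pretreated minus naive log2 level of each gene (x axis) at 0 h (squares), 3 h (circles) and 6 h (triangles) with 95% intervals, filled for adjusted p under 0.05. At 0 h Irf1 and Irf7 differed by 1.11 and 1.54, and at 3 h and 6 h no gene passed, with Irf7 at 0.42 and 0.59.

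Restimulation asked whether pretreated cells respond to the same extent. At 3 h Irf1 and Irf8 rose in pretreated cells, 2 of 8 against 1.86% of all genes, and no member fell, against 0.998% (2.85% in either direction). At 6 h Irf1, Irf5 and Irf8 rose, 3 of 8 against 2.89%, and no member fell, against 2.76% (5.65% in either direction). Irf1 was at 12.93 and 12.85 in pretreated cells at 3 h, against 11.52 and 11.7 at 0 h, a change of 1.28 ± 0.15 or 2.42-fold (adjusted p = 0.00044). At 6 h it was at 13.11 on both arrays, against 11.47 and 11.9 at 0 h, a change of 1.43 ± 0.15 (adjusted p = 0.000149). Irf8 read 12.82 and 12.75 at 3 h, against 11.35 and 11.41 at 0 h, and rose by 1.41 ± 0.15 or 2.65-fold (adjusted p = 0.000266). These rises were all clear of the spread between arrays. At 6 h Irf8 read 13.29 on both arrays, against 12.39 and 12.24 at 0 h, a rise of 0.97 ± 0.15 (adjusted p = 0.00224). Of the 7 conventional dendritic cell markers only Clec9a rose in pretreated cells at 6 h (3.62), and their median change was 0.12. Their mean level was 7.36 to 7.44, against 6.73 to 6.75 at 0 h. Their part in the Irf8 value was not tested. Irf5 rose by 0.57 ± 0.14 at 6 h (adjusted p = 0.0272), a call that was lost without either pretreated 0 h array of set 1 or either pretreated 6 h array (adjusted p up to 0.192).

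Irf7 started high in pretreated cells and changed little. It was at 12.38 and 12.58 at 3 h, against 11.97 and 11.99 at 0 h, a change of 0.5 (interval 0.07 to 0.93, adjusted p = 0.27). At 6 h it was at 12.68 and 12.55, against 12.25 and 11.93 at 0 h, a change of 0.53 (interval 0.1 to 0.96, adjusted p = 0.185). The groups did not overlap at either time, though neither change passed over all genes. Irf2 changed by 0.33 at 3 h (adjusted p = 0.174) and by 0.28 at 6 h (adjusted p = 0.237), and Irf4 by -0.77 (adjusted p = 0.26) and -0.83 (adjusted p = 0.167). Both pretreated Irf4 arrays at 3 h (6.09 and 5.88) lay below the dim level. With positions 1 to 4 and 5 to 8 of a set, numbered in the titles, as a block, Irf7 (adjusted p = 0.0445) and Irf4 (adjusted p = 0.0321) passed at 6 h.

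The difference of the responses, pretreated minus naive, was tested in the same fit, and it shares its 0 h arrays with the comparisons above. At 3 h it passed for Irf1 alone among the 8, with a negative sign (-1.65 ± 0.21, adjusted p = 0.00822), where 0.0802% of all genes were lower and none higher. The call for Irf1 was lost without naive 3 h replicate 2 (adjusted p = 0.0525), pretreated 0 h replicate 4 (0.0577) or pretreated 3 h replicate 2 (0.0639), with differences of -1.65, -1.56 and -1.61. It was also lost in a fit to set 2 alone (adjusted p = 0.0652) and with an additive set term (-1.26, adjusted p = 0.244). Irf7 was at -1.32 ± 0.28 (interval -1.92 to -0.72) and did not pass (adjusted p = 0.258), though it did with the positions in a set as a block (adjusted p = 0.0358). Irf8 was at -0.15 (interval -0.62 to 0.31) and Irf5 at -0.05 (interval -0.48 to 0.37). At 6 h no member passed in limma, where 0.0301% of all genes were higher and 0.115% lower (0.145% in all), and Irf1 (-0.84, adjusted p = 0.182) and Irf7 (-0.76, adjusted p = 0.383) had an unadjusted p under 0.05, 2 of 8 members against 9.12% of all genes.

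At 3 h the pretreated minus naive level was -0.15 for Irf1 (interval -0.47 to 0.17), and the start differed by 1.5 in the same set, which together make the difference of -1.65. No member passed between pretreated and naive cells at 3 h or 6 h in limma. Of all genes 0.01% were higher and 0.00502% lower at 3 h (0.015% in all), and 0.431% were higher and 0.271% lower at 6 h (0.702% in all). At an unadjusted p under 0.05 these comparisons gave Irf4 at 3 h (-0.67, interval -1.32 to -0.02), 1 of 8 against 3.7% of all genes, and Irf7 at 6 h (0.59, interval 0.17 to 1.02), 1 of 8 against 12.3%, a share near that of all genes. Both pretreated Irf4 arrays at 3 h (6.09 and 5.88) and naive 3 h replicate 2 (6.3) lay below the dim level. With positions 1 to 4 and 5 to 8 of a set as a block, Irf7 passed at 6 h (adjusted p = 0.0465, against 0.202 without the block). The difference for Irf8 was 0.01 at 3 h (interval -0.32 to 0.34) and -0.03 at 6 h (interval -0.36 to 0.3).

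Whether responses differed between 6 h and 3 h could only be read across the array sets, so time cannot be told apart from set. No member passed in naive cells, where 0.682% of all genes were higher and 1.05% lower at 6 h (1.73% in all), nor in pretreated cells, where 0.00502% were higher and 0.015% lower (0.0201% in all). At an unadjusted p under 0.05, Irf1 (-0.67, adjusted p = 0.153) and Irf8 (-0.47, adjusted p = 0.366) had a smaller rise at 6 h in naive cells, 2 of 8 against 13.3% of all genes in either direction, and no member did in pretreated cells, against 7.31%.

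Irf1 had a second, dimmer feature on the array, matched only to the transcript record AK053162. It rose in naive cells by 2.22 ± 0.18 at 3 h (adjusted p = 3.31e-05 in a fit to all features) and by 1.58 ± 0.18 at 6 h. In pretreated cells it rose by 1.33 ± 0.18 at 3 h and by 2.23 ± 0.18 at 6 h. The features disagree at 0 h. The dimmer one was at 7.34 and 7.5 in pretreated cells of set 1, against 7.44 and 7.76 in naive cells, and at 7.62 and 7.64 in set 2, against 6.95 and 6.96. It overlapped between groups in set 1 and not in set 2, and its difference over both sets was 0.25 ± 0.13 (adjusted p = 0.807). Its difference of responses was -0.88 ± 0.26 at 3 h and 0.65 ± 0.26 at 6 h, and neither passed. The higher Irf1 level at 0 h and the smaller response at 3 h passed on the brighter feature alone.

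**Figure D4:**
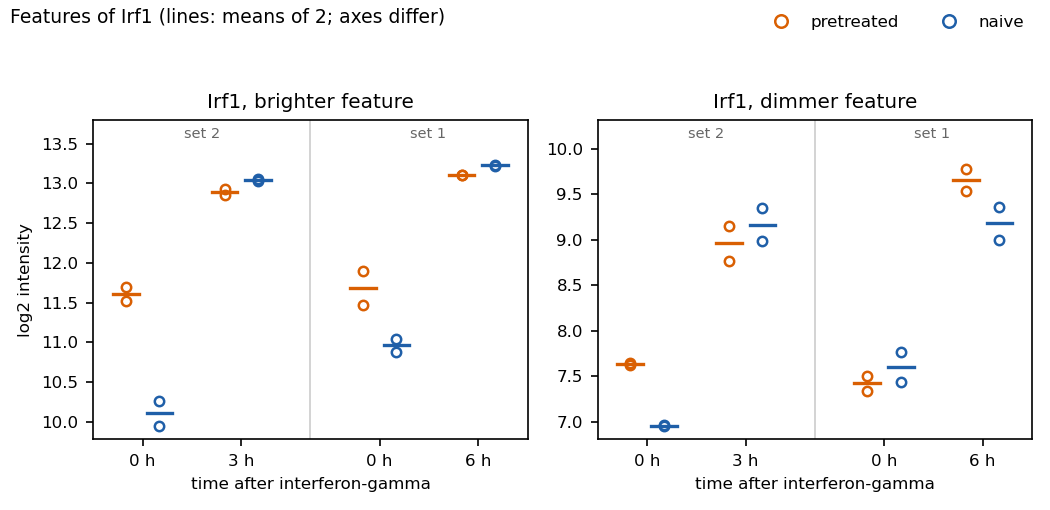
Log2 intensity of the brighter Irf1 feature (left) and the dimmer one (right) on each array, pretreated cells in orange left of naive cells in blue, lines for means of 2 arrays, with axes that differ. Both features rose at 3 h and 6 h, while in set 1 at 0 h the brighter one was higher in pretreated cells and the dimmer one overlapped.

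Genes upstream of the IRFs were read as lists chosen with earlier results of these data known. In naive cells 3.37% of all genes rose and 2.09% fell at 3 h, and 7.48% rose and 10.8% fell at 6 h. Of 12 measured genes of the interferon-gamma receptor, its kinases and feedback inhibitors, 6 rose and 2 fell in naive cells at 3 h (median 0.63), and 7 rose at 6 h (median 0.86). The feedback inhibitor Socs1 rose by 4.25 ± 0.15 at 3 h and 3.56 ± 0.15 at 6 h, and Socs3 by 4.04 ± 0.21 and 3.26 ± 0.21. The 2 that fell at 3 h were the receptor chains Ifngr1 (-0.93, adjusted p = 0.00164) and Ifngr2 (-0.58, adjusted p = 0.0351, up to 0.359 with 1 array left out), both named after their values were seen. In pretreated cells at 0 h only Socs1 of the list was higher (0.54 ± 0.11, adjusted p = 0.0279), 1 of 12 against 0.808% of all genes. The call for Socs1 was lost when certain single arrays were left out.

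Of 20 measured sensors, adaptors and kinases that lie upstream of IRF3, IRF5 and IRF7, 7 rose and 1 fell in naive cells at 3 h (median 0.25), and 7 rose and 2 fell at 6 h (median 0.34). The share that fell at 6 h was near the 10.8% of all genes. The RNA sensor Ifih1 rose by 1.37 ± 0.15 at 3 h and 1.27 ± 0.15 at 6 h. The DNA-sensing adaptor Sting1 rose by 1.42 ± 0.12 and 1.23 ± 0.12, and Myd88, the adaptor of most Toll-like receptors, by 1.14 ± 0.1 and 1.22 ± 0.1. The adaptor of RNA sensing Mavs fell by 1.2 at 6 h (adjusted p = 0.000138). In pretreated cells at 3 h 4 of the 20 rose and none fell, against 1.86% and 0.998% of all genes.

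DNA-binding partners and cofactors of IRFs gave 7 rises of 21 measured genes in naive cells at 3 h (median 0.34), and 10 rises and 2 falls at 6 h (median 0.4). The share of falls at 6 h was near the 10.8% of all genes, while 7.48% of all genes rose then and 3.37% at 3 h. Batf2, which pairs with IRF1 and IRF8, rose by 4.44 ± 0.18 at 3 h and 4.23 ± 0.18 at 6 h, and it was higher in pretreated cells at 0 h by 1.08 ± 0.13 (adjusted p = 0.00065). Trim21, a ubiquitin ligase that acts on IRFs, rose by 1.87 ± 0.17 and 1.38 ± 0.17. Spi1, which encodes the IRF8 partner PU.1, was at 0.06 ± 0.1 at 3 h (adjusted p = 0.915) and rose by 0.37 ± 0.1 at 6 h (adjusted p = 0.0253). That call was lost without naive 0 h replicate 1 (0.164), naive 0 h replicate 2 (0.0612) or naive 6 h replicate 1 (0.211). The 2 that fell at 6 h were Irf2bp1 (-0.55) and Irf2bp2 (-0.65), corepressors that bind IRF2, named after their values were seen, and Irf2bp2 lost the call when naive 0 h replicate 2 (adjusted p = 0.0767) or naive 6 h replicate 2 (0.0511) was left out.

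Of 7 measured genes of the type I interferon receptor and ISGF3 partners, 2 rose in naive cells at 3 h and at 6 h. Of all genes 3.37% and 7.48% rose. The 2 were Stat2 as above and the ISG15 protease Usp18 (1.85 ± 0.34 and 1.51 ± 0.34), and the medians of the 7 were 0.07 and 0.04. Usp18 lost its call at 3 h if naive 0 h replicate 3 (adjusted p = 0.0602) or naive 3 h replicate 2 (0.0786) was left out. At 6 h it did so for naive 0 h replicate 2 (0.0559) or naive 6 h replicate 1 (0.0748). Stat2 had, like Irf7, a higher level in pretreated cells at 0 h (0.9 ± 0.08, adjusted p = 6.07e-05), and it changed by 0.4 ± 0.11 in them at 3 h (adjusted p = 0.0979). Its difference of responses at 3 h, -0.9 ± 0.16, did not pass (adjusted p = 0.102).

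Genes known as targets of IRF1 or IRF8 in macrophages gave 15 rises of 24 measured genes at 3 h (median 1.54) and 19 at 6 h (median 1.96) in naive cells, and none fell. Of all genes 3.37% rose and 2.09% fell at 3 h, and 7.48% rose and 10.8% fell at 6 h. The chemokine genes Cxcl9 (7.32 ± 0.17) and Cxcl10 (3.91 ± 0.28) and the GTPase gene Gbp5 (5.5 ± 0.35) led at 3 h. In pretreated cells 12 rose at 3 h (median 0.84) and 14 at 6 h (median 0.74), against 1.86% and 2.89% of all genes. At 0 h, 10 of the 24 were higher in pretreated cells (median 0.64), against 0.808% of all genes. Among them were Cxcl9 (5.59 ± 0.12) and Il18bp, which encodes the interleukin 18 binding protein (1.57 ± 0.14). The difference of responses at 3 h was negative and passed for 4 of the 24, against 0.0802% of all genes. These were Cxcl9 (-6.07 ± 0.24), the class I transactivator Nlrc5 (-1.47 ± 0.2), the peptide transporter Tap1 (-1.47 ± 0.17) and the immunoproteasome subunit Psmb9 (-1.09 ± 0.14). With 1 array left out the call was lost for Nlrc5 (adjusted p up to 0.103) and Psmb9 (up to 0.0803).

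**Figure D5:**
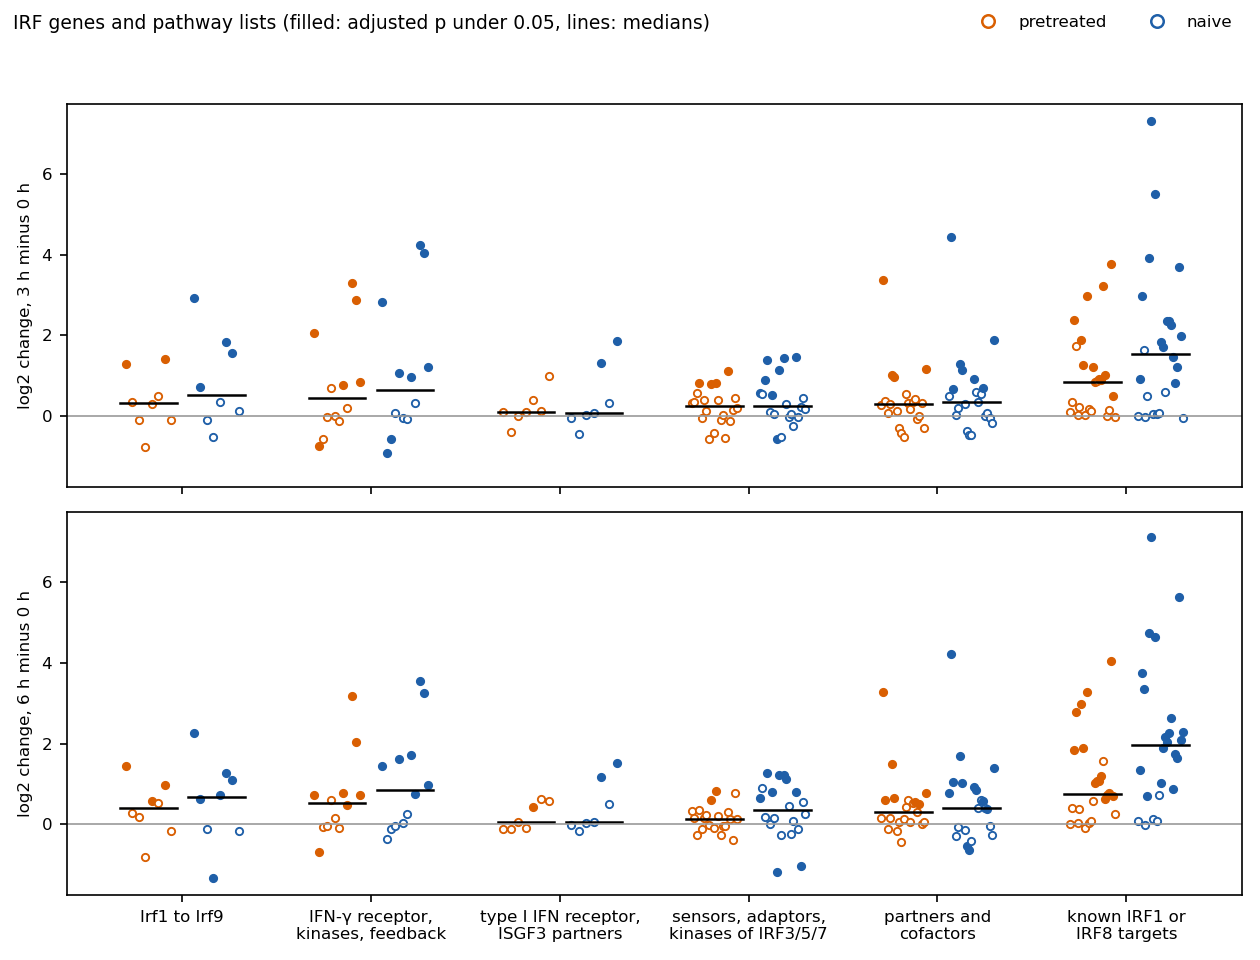
Log2 change from 0 h (y axis) of the 8 IRF genes and of the genes of 5 lists (x axis) at 3 h (top) and 6 h (bottom), pretreated cells in orange left of naive cells in blue, 1 circle a gene, filled for adjusted p under 0.05, lines for medians. The known IRF1 or IRF8 targets had medians of 0.84 in pretreated and 1.54 in naive cells at 3 h, and of 0.74 and 1.96 at 6 h.

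Patterns over the 16 arrays, centred within each set, were compared among the 13108 genes that were not dim, as a description of arrays that share groups and sets. The genes most like Irf1 were Gbp3 (Pearson r 0.992), Gbp5 (0.991) and BC023105 (0.991). Those most like Irf8 were I830077J02Rik (0.986), Arhgef3 (0.983) and Pik3cd (0.979), and those most like Irf7 were Ifi213 (0.97), Oasl2 (0.965) and Zbp1 (0.964). No gene stood in more than 1 of these 3 lists. Irf2 was most like Trafd1 (0.977), Irf5 most like Cyrib (0.978) and Irf4 most like Csf1r (0.951), the receptor gene of the macrophage growth factor. Csf1r passed in no comparison and changed by -0.16 in naive cells at 6 h, against -1.33 for Irf4. Their likeness is one of shape and not of size. For Irf3 and Irf9, which varied little, the closest were Prdm10 (0.859) and Trmt1 (0.842).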

How the data were processed

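Biotin-labelled total RNA was read on Affymetrix MoGene arrays, per the labels. What the authors deposited is 1 log2 intensity per feature and array. How they corrected background, normalized and summarised is not given in the sources used here, and minima and medians differed between the array sets. Symbols came from the platform annotation, checked by gene identifier. Of 35557 features 21789 had 1 symbol, and the brightest feature of each gene gave 19938 genes.

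A limma fit (version 3.58.1, R 4.3.3) estimated a mean for each group in each array set (8 residual and 4.26 prior degrees of freedom). Contrasts were within a set or averaged over both at 0 h. Members, lists and tests were chosen with earlier results of these data known. Named beyond the members were Stat2, Spi1 and up to 4 genes of a list with the largest called change in a comparison, and the 3 genes most like each member. In simulated data 200 of 19938 genes were changed by a log2 of 1 or 2, up or down. Among those changed by 1, recovery was 94% in the 0 h comparison of pretreatment and 49% in the difference of responses at 3 h. In naive cells it was 77% (3 h) and 73% (6 h). The real data had 16 genes called for the difference of responses at 3 h and 3653 in naive cells at 6 h. The adjusted p depends on how many genes change, so these recoveries need not hold for the real data. Tables and figures used matplotlib 3.10.9, numpy 2.4.6, pandas 2.3.3 and Python 3.11.15. Alternatives were other set terms, each set alone, filters, feature rules, quantile normalization, eBayes settings, a 2-fold limit and each array left out.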

Additional observations from a re-analysis of the deposited data

Results flagged for a closer look

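The response of Irf1 at 3 h differed between pretreated and naive cells by the test of the difference itself, -1.65 ± 0.21 on the log2 scale. That call held on the brighter feature alone and was lost in some alternatives. The dimmer Irf1 feature, which the comparisons do not use, also showed a signal above 0 h, with log2 changes of 2.22 and 1.58 in naive cells at 3 h and 6 h and of 1.33 and 2.23 in pretreated cells. No array stood far from the other 3 of its group in the 16 combinations of member and 0 h group tested. Each such group mixes arrays of both sets, and levels were not centred within a set. Where the sets differ, the search could therefore hardly flag an array, and nothing is concluded from it.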

How the results depend on the processing

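The counts of members called in 11 comparisons were recomputed under 11 alternatives and with each of 16 arrays left out. No call of a member reversed. Of 2192 member values under an alternative, 2119 kept call and direction, 17 lost the call, 7 gained it and 49 changed sign without a call in either setting. With an additive array set term the count for the difference of responses was 0 at 3 h and 1 at 6 h. Without a set term it was 0 at 3 h, and 2 members were called in naive and 1 in pretreated cells at 3 h. With set 1 alone 1 member was called at 0 h, and with set 2 alone 0 for the difference of responses at 3 h. The 2-fold limit left 1 in pretreated cells at 6 h. With positions 1 to 4 and 5 to 8 of a set as a block, 5 were called in pretreated cells at 6 h, 1 between pretreated and naive levels at 6 h and 2 for the difference of responses at 3 h. This block gained Irf7 in all 3 comparisons (adjusted p of 0.0445, 0.0465 and 0.0358), Irf4 in pretreated cells at 6 h (0.0321) and Irf2 at 0 h (0.0339). The labels do not say that the positions pair arrays. With 1 array left out, counts ranged from 4 to 4 in naive cells at 3 h, 5 to 6 at 6 h, 2 to 2 and 2 to 3 in pretreated cells, 2 to 2 between pretreated and naive levels at 0 h and 0 to 0 at 3 h and 6 h, 0 to 1 for the difference of responses at 3 h and 0 to 0 at 6 h, and 0 to 1 for the naive response at 6 h against 3 h and 0 to 0 for the pretreated one. No share of all genes stands beside the member counts of this paragraph, so a moved count is not read as a result about these genes. The number of all genes called also changed with 1 array left out, and each such fit leaves 1 array in its group and set. The cause of these moves was not tested. Of 7398 values of 27 other named genes, 207 lost and 88 gained a call, and none with a call reversed.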
